A study of Mus musculus with 3 samples.

Results

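The connecting tubule is the short nephron segment between the distal convoluted tubule and the collecting duct, and its cells were picked out here from single-cell RNA libraries of whole mouse kidney. A barcode, the tag shared by the transcripts of 1 droplet, was kept with at least 200 detected genes and at most 50% mitochondrial transcripts. It was taken as a connecting tubule cell when it held at least 1 UMI (unique molecular identifier, 1 counted transcript) of Hsd11b2, Scnn1b or Scnn1g together and at least 4 UMIs of Slc8a1 and Calb1 together. The Slc8a1 and Calb1 sum also had to exceed the sum of Aqp2 and Aqp3, and Slc12a3 and Slc12a1 were each held to at most 1 UMI. These genes chose the cells, so their own levels are given as a description. The rule found 450 barcodes among 51795 that were kept and 60420 that were deposited.

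Kidneys came from 28-week-old male mice in 3 groups. One group was db/db mice, which carry a leptin receptor mutation on both chromosomes and are obese and diabetic, fed a diet with 60% fructose for 20 weeks from 8 weeks of age. Another was db/db mice given the fructose-free control diet over the same time, and the last was db/m mice, which carry the mutation on 1 chromosome, on that control diet. Each group was 1 10x Genomics library, and how many animals went into a library is not given in the sources used here. No fructose-fed db/m group was analysed here, so the diet was compared in db/db mice alone.

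Connecting tubule cells reabsorb calcium through an apical channel, TRPV5, carry it across the cell on calbindins (Calb1 and S100g) and extrude it into the blood through the sodium-calcium exchanger (Slc8a1) and calcium pumps. They also reabsorb sodium through the epithelial sodium channel (subunits Scnn1a, Scnn1b and Scnn1g) under aldosterone, with Hsd11b2 inactivating glucocorticoids at the mineralocorticoid receptor, and they secrete potassium. The segment is the main renal source of tissue kallikrein, encoded by Klk1.

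The rule kept 181 barcodes in db/db fructose kidney, 215 in db/db control kidney and 54 in db/m kidney. They were 0.937% (exact 95% interval 0.806 to 1.08) of kept barcodes in db/db fructose, 1.01% (0.883 to 1.16) in db/db control and 0.480% (0.361 to 0.626) in db/m. These and all further intervals are Clopper-Pearson, Poisson or conditional binomial intervals and cover counting error alone, since no group had a second library. Both db/db shares lay above the db/m share. After every kept barcode was thinned to 1500 UMIs, with shallower ones left out, the shares were 1.08% of 10414, 1.04% of 12818 and 0.527% of 6456 barcodes in db/db fructose, db/db control and db/m. A share in a digested tissue also follows how well each cell type survives digestion, and the part of digestion in these shares was not tested.

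Barcodes rich in Aqp2 and Aqp3, the water channels of collecting duct principal cells, made up 2.20% of kept barcodes in db/db fructose, 1.83% in db/db control and 4.70% in db/m. Connecting tubule barcodes were therefore 29.8% (26.2 to 33.6) of both classes together in db/db fructose, 35.7% (31.8 to 39.6) in db/db control and 9.26% (7.03 to 11.9) in db/m. Slc12a3-rich barcodes, carrying the thiazide-sensitive cotransporter of the distal convoluted tubule, were 6.79%, 9.90% and 6.18% of kept barcodes in the same order. The db/m kidney thus gave the fewest connecting tubule barcodes and the most Aqp2-rich ones.

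Depth sets what can be read from each library. The connecting tubule barcodes summed to 456473 UMIs in db/db fructose, 511788 in db/db control and 131799 in db/m, so 1 count was worth 2.19, 1.95 and 7.59 CPM (counts scaled to a library total of 1000000). Their median barcode held 1854, 2096 and 2179 UMIs and 15.9%, 29.6% and 18.7% mitochondrial transcripts in the same order. Proximal tubule transcripts were present in the connecting tubule barcodes of all 3 libraries: 15 marker genes reached 39.6%, 47.2% and 49.0% of their level over all kept barcodes. Whether they came from free RNA or from droplets with more than 1 cell was not tested. Between 379 and 780 barcode sequences were shared by any pair of libraries, and 0 of them were connecting tubule barcodes in both.

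Summed over the cells, marker genes that the rule did not use were higher than in other barcodes. S100g, encoding the vitamin D-dependent calbindin-D9k, was the gene that most marked the barcodes against all other kept barcodes. It stood at 16202 CPM in db/db fructose, 9717 in db/db control and 8293 in db/m, against 1482, 804 and 327 CPM in the remaining barcodes. On a log2 scale with 50 CPM added, that was 3.41, 3.52 and 4.47 higher. Because the cells were chosen by their counts, this is a description and no test.

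Further marking genes outside the rule were Clu, the secreted chaperone clusterin, with 2.29, 2.11 and 2.29 on the same scale, and Kcne1, a potassium channel subunit, with 2.04, 1.82 and 2.01. Cdo1, cysteine dioxygenase, Rhcg, an ammonia transporter, Kl, the phosphate- and calcium-regulating co-receptor klotho, Ptges, a prostaglandin E synthase, and Klk1 were also among the 12 highest. AI838599, a long non-coding RNA gene at chr4:3242055-3258092 of mm10 with no role known here, ranked behind S100g with 2.55, 2.16 and 2.79. Each of the 12 was higher in the connecting tubule barcodes in all 3 libraries.

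Trpv5, the apical calcium entry channel, was low and not in every cell. It was at 285 CPM in db/db fructose (130 counts), 135 in db/db control (69 counts) and 83.5 in db/m (11 counts). A Trpv5 UMI was seen in 34.8%, 23.3% and 14.8% of connecting tubule barcodes, with median depths as above. Barcodes rich in the proximal genes Lrp2 and Slc34a1 should lack Trpv5. They were picked without any UMI of Slc8a1, Calb1, Aqp2, Aqp3, Slc12a3 or Slc12a1. Their shares were 0.666%, 0.386% and 0.0423% at median depths of 1426.5, 1470 and 1517 UMIs. Trpv5 was thus found in a larger share of connecting tubule barcodes in each library. Leaving out barcodes with distal UMIs can lower the proximal shares, so they do not set the level of free RNA. Trpv6, the related intestinal-type channel, gave 0, 3 and 2 counts.

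**Figure D1:**
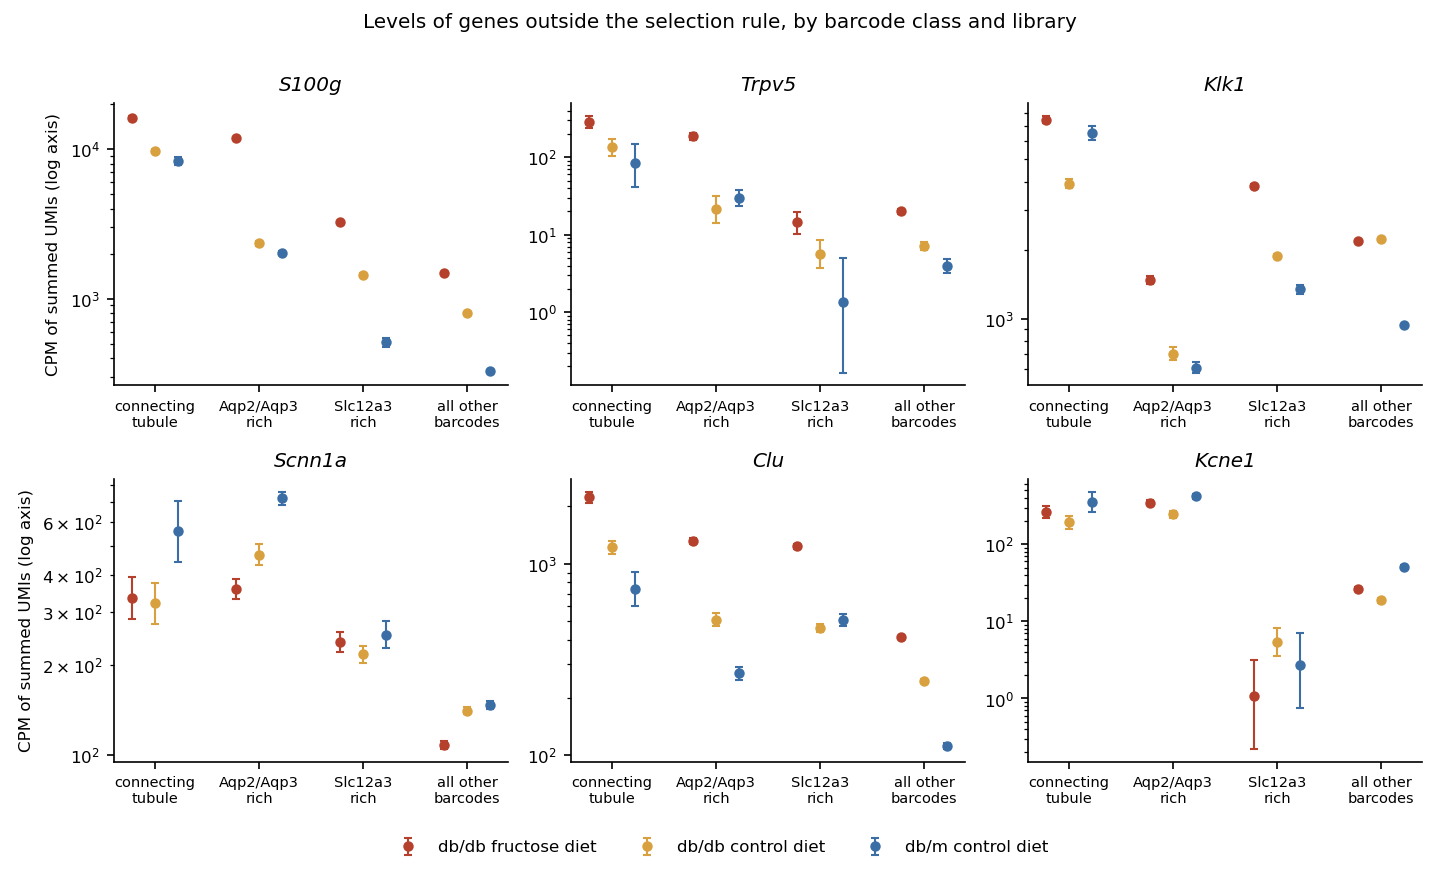
Levels of 6 genes that the selection rule did not use, in CPM of summed UMIs on log axes, for connecting tubule barcodes, Aqp2- and Aqp3-rich barcodes, Slc12a3-rich barcodes and all other kept barcodes. Points are single libraries and bars are exact 95% Poisson intervals of counting error; S100g in connecting tubule barcodes runs between 8293 and 16202 CPM, above every other class of the same library.

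Kcne1 was at 265 CPM in connecting tubule barcodes of db/db fructose, 193 in db/db control and 357 in db/m. It was at 349, 244 and 418 CPM in the Aqp2-rich barcodes, and at 1.08, 5.48 and 2.74 CPM in the Slc12a3-rich barcodes. Kcne1 was thus shared with the Aqp2-rich side and near 0 on the Slc12a3-rich side.

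Klk1 ran the other way. It was at 7479, 3916 and 6525 CPM in connecting tubule barcodes of db/db fructose, db/db control and db/m. The Slc12a3-rich barcodes had 3829, 1879 and 1346 CPM, and the Aqp2-rich ones 1481, 702 and 611 CPM. Vdr, the vitamin D receptor, had 331, 311 and 319 CPM in connecting tubule barcodes, 258, 202 and 210 in Slc12a3-rich and 124, 81.7 and 63.9 in Aqp2-rich ones. Both genes were highest in the connecting tubule in every library, while Wnk1, a kinase that controls salt transport, was higher in the Slc12a3-rich barcodes (2820, 2312 and 2508 CPM) than here (800, 866 and 926 CPM).

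S100g divided the cells the rule had chosen. The richest db/db fructose barcode held 536 S100g UMIs (median 3), the richest db/db control barcode 246 (median 6) and the richest db/m barcode 146 (median 5.5), and the lowest held 0 in each library. At least 10 UMIs were found in 33.7% of connecting tubule barcodes in db/db fructose (61 barcodes), 46.0% in db/db control (99) and 37.0% in db/m (20). At most 2 UMIs were found in 47.5%, 41.4% and 38.9%, and whether these barcodes are connecting tubule cells was not tested, which bears on the shares and ratios of the whole set. Such barcodes were not particular to the chosen set. At least 10 were held by 33.1% (141 of 426), 13.9% (54 of 388) and 17.4% (92 of 529) of Aqp2-rich barcodes. Of Slc12a3-rich barcodes, 13.4%, 5.57% and 2.87% held at least 10. Among the proximal barcodes, 2 of 2252, 0 of 1036 and 2 of 2365 had at least 10. The 0 allows a share of up to 0.290% when set to 3 counts of 1036, and its upper Clopper-Pearson bound was 0.355%. At least 1 S100g UMI was held by 39.9%, 48.9% and 7.44% of the proximal barcodes. The same shares of connecting tubule barcodes were 81.2%, 82.3% and 77.8%. Low S100g counts were thus more widespread outside the segment in both db/db libraries, and the part of free RNA in the S100g values was not tested.

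The S100g-low barcodes carried the rule gene Slc8a1 but little Kcne1, a gene shared with the Aqp2-rich barcodes. Slc8a1 was at 2929, 2330 and 3054 CPM in barcodes with at most 2 S100g UMIs in db/db fructose, db/db control and db/m, against 2264, 2202 and 1468 CPM in those with at least 10. Kcne1 was at 40.5, 16.2 and 0 CPM in the S100g-low barcodes, against 436, 335 and 623 CPM in the S100g-high ones. Slc34a1, the proximal phosphate transporter and here a sign of transcripts from other cells, was at 1694, 1554 and 1414 CPM in the S100g-low barcodes. It was at 901, 641 and 430 CPM in the S100g-high ones. S100g-low barcodes were also shallower, with medians of 1471.5, 1740 and 1541 UMIs against 3448, 2631 and 3242, and the part of depth in this difference was not tested.

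The same division followed the Aqp2 and Aqp3 UMIs of a barcode, which the rule bounded but did not require. S100g was at 3695, 4389 and 24365 CPM in db/db fructose barcodes with 0, 1 to 2 and at least 3 Aqp2 and Aqp3 UMIs. The db/db control values were 3852, 3402 and 15821 CPM, and those of db/m 2937, 3485 and 11800 CPM. Fxyd4, a regulator of the sodium pump in collecting duct cells, stood along the same bins at 63.5, 152 and 686 CPM in db/db fructose. The db/db control values were 26.7, 69.7 and 308 CPM, and the db/m values 43.8, 288 and 849 CPM. In each library the barcodes with the most Aqp2 and Aqp3 were thus the richest in S100g, Hsd11b2, Kcne1 and Fxyd4. Median depth went with the bins, with 1726, 1455 and 2636 UMIs for db/db fructose, 1630, 1744 and 3024 for db/db control and 1478.5, 1810 and 3178 for db/m.

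**Figure D2:**
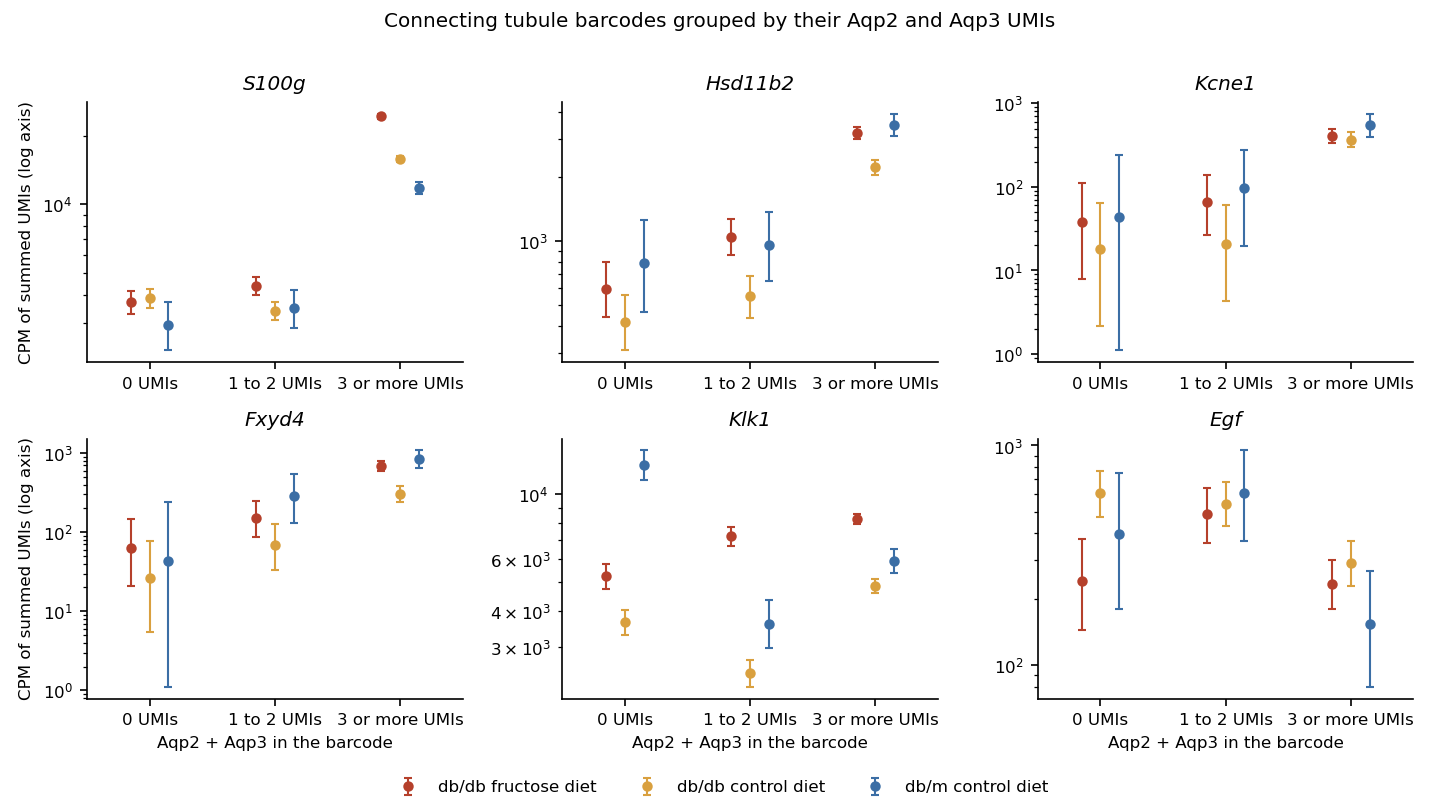
Levels of 6 genes in connecting tubule barcodes grouped by their summed Aqp2 and Aqp3 UMIs (0, 1 to 2, at least 3), in CPM of summed UMIs on log axes. Points are libraries and bars are exact 95% Poisson intervals; S100g, Hsd11b2, Kcne1 and Fxyd4 are highest in the right-hand bin of all 3 libraries, with S100g at 24365, 15821 and 11800 CPM there.

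At the edge of the rule, barcodes with 4 Slc8a1 and Calb1 UMIs were just inside and those with 3 just outside. Those just inside numbered 30 in db/db fructose, 34 in db/db control and 11 in db/m, and held S100g at 3475, 1179 and 3258 CPM. The barcodes just outside numbered 37, 99 and 7 and held S100g at 1768, 753 and 3251 CPM. In db/db control kidney the barcodes just inside, at 1179 CPM, were not far above all other barcodes, at 804 CPM.

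Some chosen barcodes also carried transcripts of other cell types. At least 3 UMIs of 9 endothelial marker genes were present in 8 barcodes of db/db fructose, 11 of db/db control and 1 of db/m. The summed endothelial markers were at 480 CPM (9 of 9 genes detected), 539 (9 of 9) and 45.5 (2 of 9). Erythroid markers were at 15.3, 1829 and 0 CPM (2, 5 and 0 of 5 genes), and in db/db control 1 barcode held all 335 Hbb-bs counts and 1 barcode held 291 of the 293 Hba-a1 counts. Immune markers were at 52.6, 60.6 and 22.8 CPM (4, 8 and 2 of 11), podocyte markers at 59.1, 70.3 and 15.2 (4, 2 and 1 of 5) and intercalated cell markers at 355, 526 and 319 (11, 12 and 6 of 12). Principal cell markers, rule genes among them, were at 3961, 2058 and 2845 CPM (7, 7 and 6 of 8). All other barcodes held them at 1674, 1014 and 2631 CPM. Outside the rule, 4 of 4 measured were at least 1.5-fold higher in db/db fructose over db/db control, against 23.7% of all genes. In db/db control over db/m, 3 of 4 were lower, against 26.7%. The part of principal cell transcripts in the ratios below was not tested. Results that rest on the endothelial-marker barcodes are given below with and without them.

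Between db/db control and db/m kidney, 3408 genes had at least 50 CPM in the connecting tubule barcodes of either library. Of these, 421 (12.4%) were at least 1.5-fold higher in db/db control and 911 (26.7%) at least 1.5-fold lower, 39.1% in either direction, with a median log2 ratio of -0.22. The larger mitochondrial share of the db/db control barcodes enters this scale. Over transcripts that were not mitochondrial, 866 of 4776 genes (18.1%) were higher and 1125 (23.6%) lower, with a median of -0.11. With 54 db/m barcodes, 1 count was worth 7.59 CPM there, so single ratios are read with their intervals, and 1 library a group allows no test.

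Between db/db fructose and db/db control kidney, 3451 genes were measured by the same minimum. Of these, 817 (23.7%) were at least 1.5-fold higher in db/db fructose and 122 (3.54%) at least 1.5-fold lower, 27.2% in either direction, with a median log2 ratio of 0.29. Over transcripts that were not mitochondrial, 632 of 4413 genes (14.3%) were higher and 377 (8.54%) lower, with a median of 0.09. Both comparisons use the db/db control library, so their values are set side by side and no overlap between them is counted. The ratios below are on the scale of all transcripts unless stated, and a ratio is to be read against these medians. Counts of genes in a list are likewise to be read against the shares over all genes on the same scale. Shares over all genes in restricted sets of barcodes are not given here.

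The 19 genes of calcium and magnesium transport were taken first. With genotype, db/db control over db/m, 15 were measured, 3 were at least 1.5-fold higher and 6 at least 1.5-fold lower (median -0.04), against 12.4% and 26.7% of all genes. With diet, db/db fructose over db/db control, 13 were measured, 5 were higher and 3 lower (median 0.55), against 23.7% and 3.54%. Among barcodes with at least 10 S100g UMIs, 5 of 14 were higher and 3 lower with genotype (median 0.35), and 5 of 13 higher and 2 lower with diet (median 0.50). That set was chosen after seeing the data, by a gene of this list. Its share over all genes is not given, so these counts have nothing to be read against. In the full set on the scale without mitochondrial transcripts, 4 of 16 were higher and 6 lower with genotype, and 3 of 14 higher and 3 lower with diet. The shares of all genes on that scale were 18.1% and 23.6% with genotype, and 14.3% and 8.54% with diet.

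The calbindin S100g was higher in db/db fructose than in db/db control connecting tubule by 0.74 on the log2 scale (0.69 to 0.79). Its genotype ratio was 0.23 (0.13 to 0.32). The 3 libraries fell in one order, db/db fructose highest, and the same order held in all other kept barcodes (1482, 804 and 327 CPM). The diet ratio was smaller over transcripts that were not mitochondrial (0.56), and with each barcode weighted equally it was 0.22. Among barcodes with at least 10 S100g UMIs it was 0.82, with 30919, 17549 and 14883 CPM in db/db fructose, db/db control and db/m. These barcodes were chosen by S100g itself, and their median depths differed (3448, 2631 and 3242 UMIs). That ratio is therefore a description, and the part of depth in it was not tested. Connecting tubule barcodes with at least 10 S100g UMIs were fewer in db/db fructose than in db/db control (61 and 99), with a higher summed S100g level. Among Aqp2-rich barcodes db/db fructose had more with at least 10 (141 and 54).

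The S100g gene lies at chrX:162961992-162964599 on the minus strand of mm10. The 250 bases before its RefSeq start (GRCm38.p6, chrX:162964600-162964849, minus strand) are shown because S100g is the leading marker of these cells, with matches to the nuclear receptor half-site AGGTCA, searched on both strands, in capitals.
S100g: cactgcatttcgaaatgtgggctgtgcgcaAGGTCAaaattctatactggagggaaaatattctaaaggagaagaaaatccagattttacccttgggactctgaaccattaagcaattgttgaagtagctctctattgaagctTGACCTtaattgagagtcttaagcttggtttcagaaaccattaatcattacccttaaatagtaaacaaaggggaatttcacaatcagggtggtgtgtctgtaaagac
The window held 2 such matches, and 1.36% of 32851 promoter windows of that length held at least 2.

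Trpv5 shared the order of S100g. Its log2 ratio was 1.08 in db/db fructose over db/db control (interval 0.65 to 1.52) and 0.69 in db/db control over db/m (-0.24 to 1.76). The diet interval lay above 0 and the genotype interval did not. In the Aqp2-rich barcodes Trpv5 was at 186, 21.4 and 30.1 CPM in db/db fructose, db/db control and db/m, so the high db/db fructose level was present there too. The 250 bases before the Trpv5 start (GRCm38.p6, chr6:41680724-41680973, minus strand) are given for comparison with S100g, with the TATA box TATAAA, searched on both strands, in capitals.
Trpv5: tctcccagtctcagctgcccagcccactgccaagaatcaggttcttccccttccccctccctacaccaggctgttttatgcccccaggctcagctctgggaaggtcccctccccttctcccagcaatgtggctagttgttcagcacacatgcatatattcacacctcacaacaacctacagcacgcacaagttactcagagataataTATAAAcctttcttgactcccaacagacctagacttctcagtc
The window held 1 TATA box, and 12.4% of 32851 windows held at least 1. The S100g window held 0 TATA boxes, and the Trpv5 window held 0 nuclear receptor half-sites. GENCODE places the Trpv5 start at chr6:41680769, inside this window, and the marked box, 43 bases before the RefSeq start, lies within that gene.

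Calb1 and Slc8a1, which chose the cells, are given as a description. Calb1, the calbindin-D28k gene, was at 3672 CPM in db/db fructose, 2935 in db/db control and 2496 in db/m. Slc8a1, the basolateral exchanger, was at 2616, 2259 and 2314 CPM. Neither differed by 1.5-fold between any of the libraries compared.

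The calcium pump gene Atp2b4 ran against S100g in the diet comparison only. It was at 156 CPM in db/db fructose, 238 in db/db control and 159 in db/m. Its log2 ratio was -0.62 in db/db fructose over db/db control (interval -1.06 to -0.18) and 0.58 in db/db control over db/m (-0.09 to 1.32). Vdr did not differ by 1.5-fold in either comparison, at 0.09 (-0.24 to 0.42) and -0.04 (-0.54 to 0.49).

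Stc1, encoding stanniocalcin, a secreted regulator of calcium and phosphate handling, was at 210 CPM in db/db fructose (96 counts), 68.4 in db/db control (35 counts) and 121 in db/m (16 counts). Its ratio was 1.62 in db/db fructose over db/db control (interval 1.05 to 2.22) and -0.83 in db/db control over db/m (-1.72 to 0.12). The Aqp2-rich barcodes held more of it, 527, 106 and 149 CPM, with db/db fructose highest as well.

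Kl was at 1667 CPM in db/db fructose, 1079 in db/db control and 1851 in db/m. It was 0.63 higher in db/db fructose than in db/db control (0.47 to 0.79). The genotype ratio was -0.78, with an upper bound of -0.56. The db/db control library was the low one of the 3. Over transcripts that were not mitochondrial the diet ratio was 0.45, short of 1.5-fold.

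Klk1 was likewise lowest in db/db control. Its ratio was 0.93 in db/db fructose over db/db control (interval 0.85 to 1.01) and -0.74 in db/db control over db/m (-0.85 to -0.62). A single barcode held 708 of the 3414 Klk1 counts of db/db fructose, and without the richest barcode of each library the levels were 5984, 3791 and 5480 CPM. Among barcodes with at least 10 S100g UMIs the genotype ratio turned to 0.12. Klk1 belongs to a family of close paralogs, and how reads matching several of them were counted is not given in the sources used here.

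Slc12a3 and Pvalb, genes of the distal convoluted tubule, were lowest in db/m, as was Cyp24a1 of the calcium list. Of other distal convoluted tubule genes, Pgam2 (263, 215 and 379 CPM) was highest in db/m. The genotype ratio of Trpm6, a magnesium channel, was -1.58 (-2.88 to -0.23). Slc12a3, bounded by the rule, was at 94.2 CPM in db/db fructose (43 counts), 168 in db/db control (86) and 37.9 in db/m (5). Pvalb, the calcium buffer parvalbumin, gave 24, 62 and 2 counts, and Cyp24a1, which degrades vitamin D, 36, 67 and 3. In all other barcodes Slc12a3 was at 1692, 2108 and 1312 CPM, Pvalb at 112, 251 and 115 and Cyp24a1 at 247, 276 and 35.0, so the levels in the chosen barcodes were below those of the remaining kidney. After free RNA was subtracted, the Cyp24a1 genotype ratio turned to -1.79 and the Pvalb diet ratio to 1.04.

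Of the 31 genes of sodium and potassium transport and aldosterone response, 24 were measured in each comparison. With genotype, 1 was at least 1.5-fold higher and 7 lower (median -0.19), against 12.4% and 26.7% of all genes. In db/db fructose over db/db control, 5 were higher and 1 lower (median 0.35), near the 23.7% and 3.54% of all genes. Over transcripts that were not mitochondrial, 2 of 26 were higher and 1 lower, against 14.3% and 8.54%.

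Hsd11b2, a rule gene, was at 2254 CPM in db/db fructose, 1352 in db/db control and 2420 in db/m. The channel subunits of the rule were lowest in db/db control as well, Scnn1b with 344, 246 and 417 CPM and Scnn1g with 473, 322 and 455 CPM. Scnn1a, the subunit that the rule did not use, differed from them. It was at 335 CPM in db/db fructose, 322 in db/db control and 561 in db/m. Its ratio was -0.80 in db/db control over db/m (-1.20 to -0.38) and 0.06 in db/db fructose over db/db control (-0.27 to 0.38). Scnn1a was thus low in both db/db libraries, and the Aqp2-rich barcodes, at 360, 468 and 721 CPM, also had db/m highest.

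Fxyd4 had the lowest ratio of all genes eligible for naming in db/db control over db/m. It was at 456 CPM in db/db fructose (208 counts), 180 in db/db control (92) and 577 in db/m (76). The ratio was -1.68 in db/db control over db/m (-2.14 to -1.22) and 1.34 in db/db fructose over db/db control (0.98 to 1.71). In the Aqp2-rich barcodes, where Fxyd4 was most abundant, it stood at 3099, 3127 and 3786 CPM, with no fold of 1.5 between libraries. Among barcodes with at least 10 S100g UMIs the ratios were -1.74 and 1.02.

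Potassium and kinase genes gave smaller differences. Kcnj10, a basolateral potassium channel, was at 164 CPM in db/db fructose, 104 in db/db control and 197 in db/m. Its ratios were -0.93 in db/db control over db/m (-1.63 to -0.19) and 0.67 in db/db fructose over db/db control (0.14 to 1.20). Kcnj1, the apical potassium secretion channel ROMK, was at 333, 252 and 281 CPM, within 1.5-fold in both comparisons. Kcnma1, the flow-activated BK channel, gave 0, 1 and 0 counts. Nr3c2, the mineralocorticoid receptor, was at 105, 102 and 114 CPM, and Sgk1, an aldosterone-induced kinase, at 353, 258 and 220 CPM, with no 1.5-fold difference.

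Klhl3, the adaptor that marks WNK kinases for degradation, was at 78.9 CPM in db/db fructose (36 counts), 178 in db/db control (91) and 114 in db/m (15). Its diet ratio was -1.17 (-1.77 to -0.60) and its genotype ratio 0.64 (-0.15 to 1.54). Wnk4, one of those kinases, had 351, 233 and 341 CPM, with a diet ratio of 0.59 (0.24 to 0.95). Klhl3 was the 1 gene of the list at least 1.5-fold lower in db/db fructose.

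**Figure D3:**
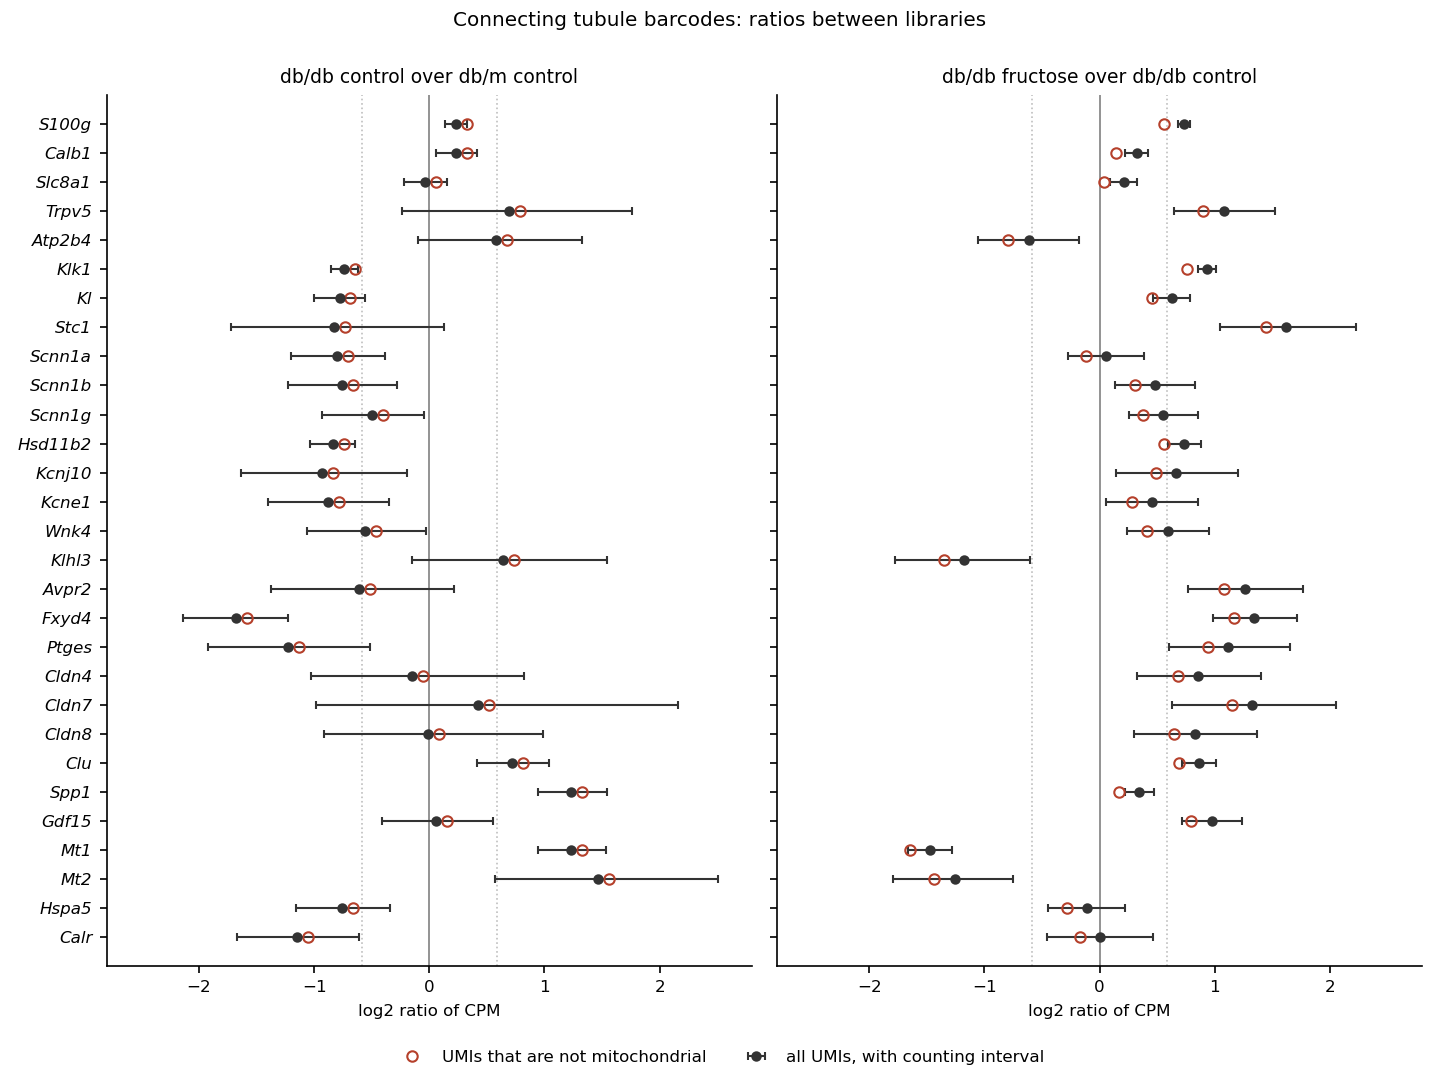
Log2 ratios of CPM in connecting tubule barcodes for 29 named genes, db/db control over db/m on the left and db/db fructose over db/db control on the right. Filled points use all transcripts with exact 95% counting intervals, open circles transcripts that are not mitochondrial, and dotted lines mark 1.5-fold; Mt1 stands at 1.23 on the left and -1.47 on the right.

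Of 15 genes of water transport and vasopressin signalling, 7 were measured in db/db control over db/m. Of these, 0 were higher and 3 lower (median -0.37), against 12.4% and 26.7% of all genes. In db/db fructose over db/db control, 2 were higher and 0 lower of 6 (median 0.06), against 23.7% and 3.54%. Avpr2, the vasopressin receptor, was at 239 CPM in db/db fructose (109 counts), 99.7 in db/db control (51) and 152 in db/m (20). Its diet ratio was 1.26 (0.77 to 1.77). Aqp2, bounded by the rule, was at 2309, 1290 and 1457 CPM.

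The metallothionein genes Mt1 and Mt2 were highest in the db/db control connecting tubule. Mt1 was at 681 CPM in db/db fructose (311 counts), 1888 in db/db control (966) and 804 in db/m (106). Mt2 was at 96.4 CPM (44 counts), 231 (118) and 83.5 (11). Both encode small cysteine-rich proteins that bind zinc and copper and are induced by metals and glucocorticoids. Mt1 was 1.23 in db/db control over db/m (0.94 to 1.53) and -1.47 in db/db fructose over db/db control (-1.66 to -1.28).

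Mt2 had the same directions, at 1.47 (0.57 to 2.51) and -1.26 (-1.79 to -0.75). An Mt1 UMI was found in 48.6%, 71.2% and 53.7% of the barcodes, and the richest db/db control barcode held 62 of 966 counts. Of the db/db control counts, 826 lay in the 99 barcodes with at least 10 S100g UMIs. Over transcripts that were not mitochondrial, the Mt1 ratios were 1.33 and -1.65. In all other barcodes Mt1 was at 577, 785 and 482 CPM, in which db/db control was again the highest library. In the Slc12a3-rich barcodes it was at 2054, 1536 and 1812 CPM, in which db/db control was the lowest.

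The 250 bases before each start (RefSeq, GRCm38.p6, plus strand, Mt1 chr8:94178839-94179088 and Mt2 chr8:94172368-94172617) are shown because both genes were highest in the same library, with matches to the metal response element core, TGCACNC or TGCGCNC on both strands, in capitals.
Mt1: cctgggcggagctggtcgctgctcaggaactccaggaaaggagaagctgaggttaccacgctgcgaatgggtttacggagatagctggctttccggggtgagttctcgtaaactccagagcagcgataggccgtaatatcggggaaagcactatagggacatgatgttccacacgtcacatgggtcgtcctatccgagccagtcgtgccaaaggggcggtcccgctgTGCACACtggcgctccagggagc
Mt2: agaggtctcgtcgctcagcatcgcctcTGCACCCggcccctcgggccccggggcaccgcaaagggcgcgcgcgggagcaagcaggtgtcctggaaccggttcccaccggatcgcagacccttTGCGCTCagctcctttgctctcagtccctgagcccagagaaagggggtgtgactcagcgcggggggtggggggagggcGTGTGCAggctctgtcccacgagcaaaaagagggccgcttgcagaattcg
The Mt1 window held 1 match and the Mt2 window held 3, and sites outside these windows were not counted. GENCODE places the Mt1 start at 94179082, inside its window, and the Mt2 start at 94172664, beyond its window. The 2 counts therefore do not compare the whole promoters. At least 1 was present in 21.4% of 32851 windows and at least 3 in 1.26%.

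Of 22 oxidative stress and metal response genes, 18 were measured in db/db control over db/m. Mt1 and Mt2 were the 2 at least 1.5-fold higher, and 4 were lower (median -0.27), against 12.4% and 26.7% of all genes. In db/db fructose over db/db control, 4 of 19 were higher and 3 lower (median -0.0026), against 23.7% and 3.54%. Over transcripts that were not mitochondrial the counts were 1 and 4, against 14.3% and 8.54%. Gclm, for glutathione synthesis, was at 70.1, 48.8 and 144 CPM, with a genotype ratio of -1.56 (-2.48 to -0.62). Prdx1, a peroxide-removing enzyme, had a diet ratio of 0.89 (0.53 to 1.25).

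Of 30 epithelial injury genes, few were measured. In db/db control over db/m, 4 of 11 measured were at least 1.5-fold higher and 0 lower (median 0.47), against 12.4% and 26.7% of all genes. In db/db fructose over db/db control, 6 of 12 were higher and 1 lower (median 0.53), against 23.7% and 3.54%. Without the endothelial-marker barcodes, 3 of 9 were higher and 0 lower with genotype, and 5 of 10 higher and 0 lower with diet. Without mitochondrial transcripts the counts were 6 of 12 and 0, and 4 of 14 and 1. The shares of all genes on that scale were 18.1% and 23.6%, and 14.3% and 8.54%.

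Spp1, the secreted matrix protein osteopontin, was at 2379 CPM in db/db fructose, 1874 in db/db control and 797 in db/m. Its genotype ratio was 1.23 (0.94 to 1.54) and its diet ratio 0.34 (0.22 to 0.47). All other barcodes stood at 1909, 985 and 633 CPM, in the same order. Clu was at 2228, 1225 and 744 CPM, with ratios of 0.72 (0.41 to 1.04) and 0.86 (0.72 to 1.01), and its order was also that of the remaining barcodes (415, 245 and 112 CPM).

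Gdf15, a stress-induced hormone of the TGF-beta family, was highest in db/db fructose. It was at 730 CPM in db/db fructose, 371 in db/db control and 357 in db/m. Its diet ratio was 0.97 (0.71 to 1.24) and its genotype ratio 0.06 (-0.41 to 0.55). In db/m, 1 barcode held 14 of the 47 counts. Cryab, a small heat shock protein, had a diet ratio of 1.09 (0.61 to 1.58), with 43 of its 106 db/db fructose counts in 1 barcode.

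Of 19 claudin and junction genes, 10 were measured with diet. Of these, 7 were at least 1.5-fold higher than in db/db control and 0 lower (median 0.77), against 23.7% of all genes. Without mitochondrial transcripts, 6 of 12 were higher and 1 lower, against 14.3% and 8.54%. With genotype, 0 of 11 were higher and 3 lower, against 12.4% and 26.7%. Cldn8, the tight-junction protein of the aldosterone-sensitive nephron, was at 173 CPM in db/db fructose, 97.7 in db/db control and 98.6 in db/m, with a diet ratio of 0.82 (0.30 to 1.37). Its partner Cldn4 was at 173, 95.7 and 106 CPM (0.85, 0.32 to 1.40), and Cldn7 at 127, 50.8 and 37.9 CPM (1.32, 0.63 to 2.05). Cdh1, the adhesion protein E-cadherin, had a diet ratio of 0.81 (0.31 to 1.33).

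Secreted factors and local receptors gave 8 of 13 higher and 0 lower in db/db fructose over db/db control (median 0.67), against 23.7% and 3.54% of all genes. Over transcripts that were not mitochondrial, 5 of 13 were higher and 2 lower, against 14.3% and 8.54%. On the scale of all transcripts they gave 1 of 12 higher and 5 lower in db/db control over db/m (median -0.18), against 12.4% and 26.7%. Ptges was at 204 CPM in db/db fructose (93 counts), 93.8 in db/db control (48) and 220 in db/m (29). Its ratios were 1.12 (0.60 to 1.65) with diet and -1.23 (-1.92 to -0.51) with genotype. Ptger1, a prostaglandin E2 receptor, was at 87.6, 37.1 and 68.3 CPM. Its genotype ratio was -0.88 (-2.09 to 0.45), and 0.26 in barcodes with Slc12a3 and Slc12a1 at 0.

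Transcription factors of the distal nephron gave 5 of 18 higher and 0 lower in db/db fructose over db/db control (median 0.44). In db/db control over db/m they gave 2 of 16 higher and 3 lower (median -0.31). The higher counts were near the shares of all genes, 23.7% and 12.4%. Lower genes were 3.54% and 26.7% of all genes. Over transcripts that were not mitochondrial, 2 of 18 were higher and 0 lower with diet, against 14.3% and 8.54%. Gata2 was at 147, 97.7 and 235 CPM, with a genotype ratio of -1.27 (-1.94 to -0.57). Tfap2b, which is needed for distal nephron differentiation in mice, was at 166, 123 and 159 CPM.

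**Figure D4:**
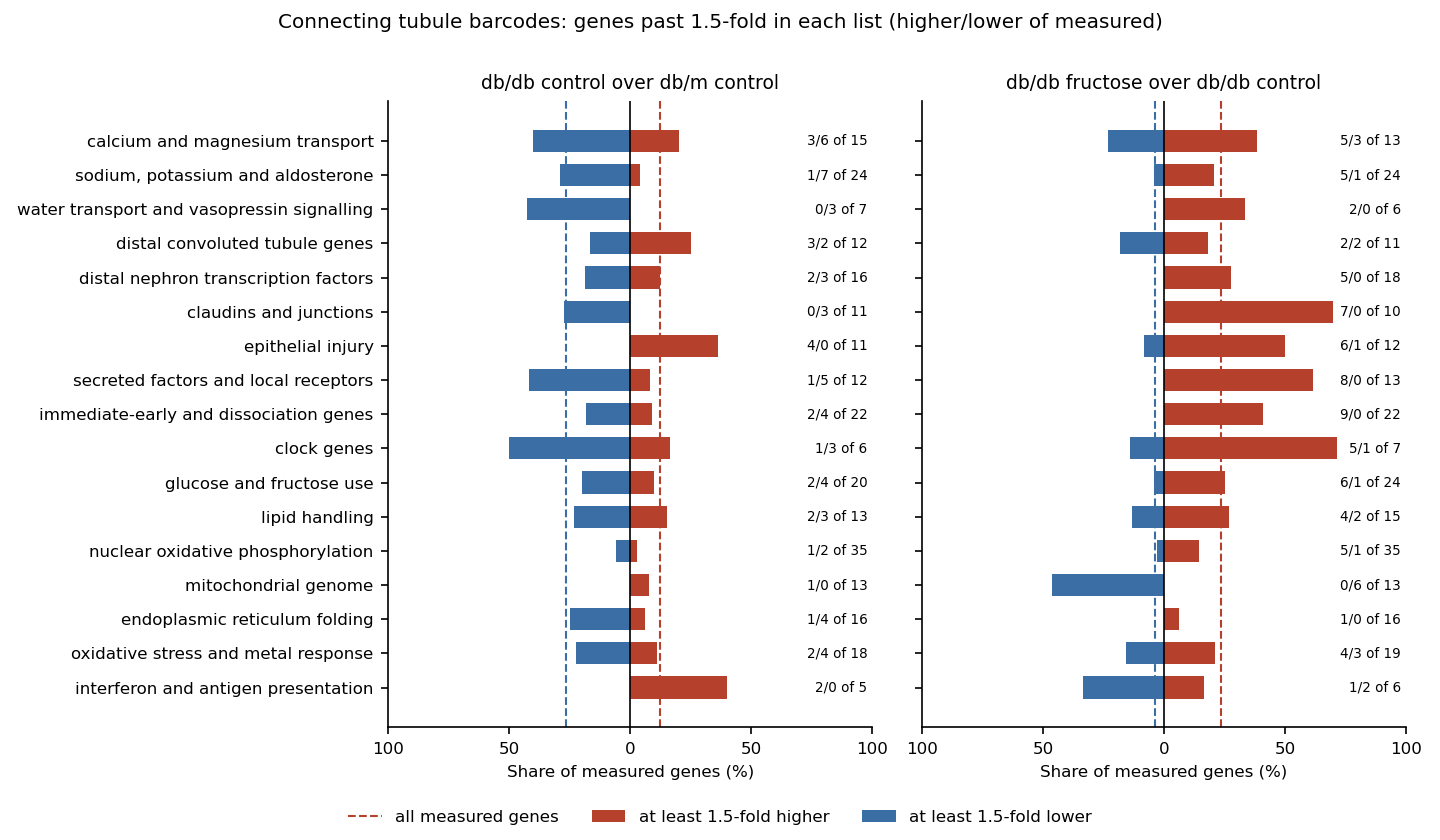
Share of the measured genes of 17 lists (percent) that were at least 1.5-fold higher (red, right) or lower (blue, left) in connecting tubule barcodes, db/db control over db/m in the left panel and db/db fructose over db/db control in the right. Figures at the bars give higher and lower counts of the genes measured, and dashed lines give the same share over all measured genes (12.4% and 26.7%, then 23.7% and 3.54%).

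Immediate-early genes, which also respond to tissue dissociation, were higher in 9 of 22 and lower in 0 in db/db fructose over db/db control (median 0.52). The shares of all genes were 23.7% and 3.54%. With genotype, 2 were higher and 4 lower (median -0.26), against 12.4% and 26.7%. Without the endothelial-marker barcodes the diet counts were 5 of 19 higher and 0 lower and the genotype counts 0 of 21 higher and 4 lower. That 5 of 19 was near the share of all genes in the full set. The diet count was 7 of 26 over transcripts that were not mitochondrial, against 14.3%. Junb was at 624 CPM in db/db fructose, 326 in db/db control and 630 in db/m, and in all other barcodes at 564, 339 and 599 CPM, so its order was that of the whole library. Ier3, an early response gene that limits apoptosis, was at 565, 252 and 357 CPM, with a diet ratio of 1.17 (0.85 to 1.48), and in all other barcodes at 187, 165 and 213 CPM. The kidneys' handling times were not given in the sources used here.

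Of 18 clock genes, 7 were measured with diet, of which 5 were higher and 1 lower (median 0.78), against 23.7% and 3.54% of all genes. Without mitochondrial transcripts, 4 of 8 were higher and 3 lower, against 14.3% and 8.54%. With genotype 1 of 6 was higher and 3 lower (median -0.43), against 12.4% and 26.7%. Nr1d1, the circadian repressor REV-ERB-alpha, gave 31 counts in db/db fructose, 2 in db/db control and 0 in db/m. All other barcodes held it at 87.1, 19.3 and 11.4 CPM, with the same order. Nr1d2, its paralog, gave 25, 8 and 1 counts. The ratio of Nr1d1 in db/db fructose over db/db control was 4.12 (2.14 to 7.23). The time of day of tissue collection is not given in the sources used here, and its part in these values was not tested.

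Of 16 endoplasmic reticulum folding genes measured in db/db control over db/m, 1 was at least 1.5-fold higher and 4 lower (median -0.47, against -0.22 for all genes). The shares of all genes were 12.4% and 26.7%. Hspa5, the chaperone BiP, was at 305 CPM in db/db fructose, 328 in db/db control and 554 in db/m, with a ratio of -0.75 (-1.16 to -0.34). Calr, the calcium-binding chaperone calreticulin, was at 169, 168 and 372 CPM, with a ratio of -1.15 (-1.67 to -0.61). With diet, 1 of 16 genes was higher and 0 lower (median 0.13), against 23.7% and 3.54% of all genes. All other barcodes had Hspa5 at 277, 381 and 581 CPM and Calr at 149, 159 and 295 CPM, with db/m again highest.

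The mitochondrial genome and the nuclear genes of oxidative phosphorylation gave different counts. Of 13 mitochondrially encoded genes, 6 were at least 1.5-fold lower in db/db fructose than in db/db control and 0 higher (median -0.52), and 1 was higher in db/db control than in db/m (median 0.22). Of 35 nuclear genes, 5 were higher and 1 lower with diet (median 0.26), and 1 higher and 2 lower with genotype (median -0.09), against 23.7% and 3.54% of all genes with diet and 12.4% and 26.7% with genotype. In barcodes with at least 10 S100g UMIs, 16 of the 35 were higher and 0 lower with diet (median 0.48), and 1 higher and 8 lower with genotype (median -0.28). That set was chosen after seeing the data and its share over all genes is not given, so these counts have nothing to be read against. The mitochondrially encoded mt-Co1 was at 34085, 56074 and 42185 CPM, and at 21768, 47346 and 30661 CPM in all other barcodes, in the same order.

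Glucose and fructose genes gave 6 of 24 higher and 1 lower with diet (median 0.30), near the 23.7% and 3.54% of all genes. Over transcripts that were not mitochondrial, 1 of 25 was higher and 2 lower, against 14.3% and 8.54%. With genotype, 2 of 20 were higher and 4 lower on the scale of all transcripts (median -0.22), against 12.4% and 26.7%. Lipid handling genes gave 4 of 15 higher and 2 lower with diet (median 0.12), and 2 of 13 higher and 3 lower with genotype (median -0.16). Their higher counts were near the shares of all genes, 23.7% and 12.4%. Lower genes were 3.54% of all genes with diet and 26.7% with genotype. Scd2, a fatty acid desaturase, was at 305, 199 and 432 CPM, with a genotype ratio of -1.12 (-1.60 to -0.62). Srebf2, the regulator of cholesterol synthesis, gave 25, 10 and 6 counts. Of distal convoluted tubule genes, 2 of 11 were higher and 2 lower with diet (median -0.01), against 23.7% and 3.54% of all genes. Over transcripts that were not mitochondrial the counts were 0 and 3, against 14.3% and 8.54%. With genotype 3 of 12 were higher and 2 lower (median -0.16), against 12.4% and 26.7%.

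The highest ratios in db/db control over db/m were in part endothelial. Ptprb, an endothelial phosphatase, led with 13 counts in db/db fructose, 70 in db/db control and 1 in db/m, and 64 of the 70 lay in the endothelial-marker barcodes. Ramp2, Tm4sf1, Gja4, Ltbp4 and Epas1 followed the same pattern. Without those barcodes Sf3b6, a splicing factor, led, with 35, 29 and 1 counts and a ratio of 2.96 (0.37 to 8.32). Interferon and antigen presentation genes were affected as well. They gave 2 of 5 higher in db/db control over db/m, and 1 of 4 without those barcodes. With diet, 1 of 6 was higher and 2 lower, and 1 of 5 higher and 0 lower without those barcodes. In the full set 12.4% of all genes were higher with genotype, and 23.7% higher and 3.54% lower with diet. The genotype ratio of H2-D1, which has close paralogs, was 0.80 with those barcodes and -0.29 without. Its diet ratio was -0.62 with them and 0.25 without, and that of H2-K1 was -0.88 with them and 0.083 without.

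The lowest ratios in that comparison lay mainly outside the endothelial-marker barcodes. Behind Fxyd4 came Phlda1 (-1.50, -2.19 to -0.79), an apoptosis-related adaptor, Tmem178 (-1.35), Tgfbr1, a TGF-beta receptor (-1.35), Ddt (-1.34), Fmc1 (-1.29), Gata2, Apela (-1.23), Actr3 (-1.23) and Ptges. Without those barcodes Fxyd4 was at -1.66 and Phlda1 at -1.34.

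Among genes with at least 20 counts in the higher library and a level there above that of all other barcodes, the highest ratio with diet was that of Cxcl10, an interferon-induced chemokine, with 26 counts in db/db fructose, 3 in db/db control and 3 in db/m (3.28, 1.57 to 5.65). The 26 counts lay in 7 barcodes and 15 of them in 1. Kcnk1, a potassium leak channel, came next with 27, 7 and 9 counts (2.11, 0.88 to 3.56), followed by Trib1, a pseudokinase, with 46, 12 and 11 (2.10, 1.16 to 3.16). Daam2, Cops6 and Klhl12 followed.

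The lowest ratios with diet again lay mostly in endothelial-marker barcodes. Cldn5, the endothelial claudin, gave 0 counts in db/db fructose, 79 in db/db control and 0 in db/m, and Ltbp4, Mgp, Fbln5, Ptprb, Vim, Gja4, Epas1 and Sox18 followed. Acss3, with 2 of its 27 db/db control counts in those barcodes, was the exception among the 10. Cldn5 lay in 5 barcodes, with 40 of its 79 counts in 1. Without the endothelial-marker barcodes the lowest were Oaz2, an inhibitor of polyamine synthesis, with 5, 24 and 2 counts (-2.12), Acss3 (-1.50), Mt1 (-1.49) and others that include Mt2 (-1.27), Lad1 (-1.33) and Klhl3 (-1.26). Mt1 had the most counts of these, 307 in db/db fructose, 953 in db/db control and 105 in db/m.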

How the data were processed

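The authors deposited 3 filtered 10x Genomics matrices of UMI counts, 1 a library, made with Cell Ranger 6.0.0 on mm10 per the submitters' processing notes. The counts are raw and cover 32285 genes. The labels' protocols describe enzyme digestion with red cell lysis and removal of debris and dead cells, steps that can change which cells are captured.

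UMIs of the chosen barcodes were summed per library and scaled to CPM, counts per 1000000 (Python 3.11, numpy 2.4.6, scipy 1.17.1). A gene was measured in a comparison with at least 50 CPM in either library and called higher or lower past 1.5-fold. Sums of 0 were set to 3 counts for ratios. With 1 library a group no p-value was computed. The steps were tested on simulated data. Doublet scores from scanpy 1.11.5, at a rate of 0.8% per 1000 barcodes, were an alternative and not a filter. Gene positions are from the GENCODE annotation of mm10 and promoter windows from RefSeq GRCm38.p6.

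The cells and gene lists were chosen with earlier results of these data known. Named genes were the rule genes and markers, the 12 genes marking the cells, the 10 highest and 10 lowest ratios in each comparison among genes with at least 20 counts in the higher library and a level there above that of the other barcodes, and up to 4 of each list with the largest ratios. In the calcium and sodium lists any gene could be named, and some other genes were named after their values were seen, among them Tfap2b. Alternatives changed the filters, the rule, the scale, the weight of each barcode, free RNA and the minimum level. One of the genes that the rule named is not reported here.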

Additional observations from a re-analysis of the deposited data

Results flagged for a closer look

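Barcodes with more than 50% mitochondrial UMIs were left out of every comparison, and some of them met the gene rule for connecting tubule cells. They were 1.23% of such barcodes in db/db fructose (13 of 1057, 95% interval 0.656 to 2.09), 1.19% in db/db control (63 of 5292, 0.916 to 1.52) and 0.353% in db/m (8 of 2267, 0.152 to 0.694). The db/db control value drew attention because it lay above that of db/m in data that no comparison used. No group had enough libraries to look for a library far from the others.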

How the results depend on the processing

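No paired analysis was possible because each group is 1 library. Across the alternatives, 3927 of 4345 ratios of named genes kept their direction and moved by less than their interval, 379 moved further and 39 changed sign. The connecting tubule shares in db/db fructose, db/db control and db/m were 0.683%, 0.702% and 0.329% with at least 6 Slc8a1 and Calb1 UMIs, 0.450%, 0.405% and 0.293% with Slc12a3 and Slc12a1 at 0, and 0.316%, 0.467% and 0.178% with at least 10 S100g UMIs. In db/db fructose and db/db control they were 0.759% and 0.855% at no more than 30% mitochondrial UMIs, 1.13% and 1.48% with at least 3 Slc8a1 and Calb1 UMIs, 0.756% and 0.815% with under 3 UMIs of other cell types' markers, and 0.761% and 0.834% with at least 1 S100g UMI. The alternatives on S100g and on endothelial markers were chosen after seeing the data.

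Genes at least 1.5-fold higher in db/db control than in db/m, 421 as reported, numbered 743 at no more than 30% mitochondrial UMIs, 640 with Slc12a3 and Slc12a1 at 0, 633 with at least 10 S100g UMIs, 866 on the scale without mitochondrial UMIs, 639 with median-of-ratios size factors, 744 with free RNA subtracted, 1313 at a minimum of 20 CPM, 1870 with no minimum and 213 at 2-fold. Lower genes, 911 as reported, numbered 1523 with free RNA subtracted, 2000 at 20 CPM, 3061 with no minimum and 352 at 2-fold. With diet, higher genes, 817 as reported, numbered 1335 with Slc12a3 and Slc12a1 at 0, 367 with size factors, 1869 at 20 CPM, 3251 with no minimum and 219 at 2-fold. Lower genes, 122 as reported, numbered 344 at no more than 30% mitochondrial UMIs, 323 with Slc12a3 and Slc12a1 at 0, 199 with doublets removed, 267 with at least 10 S100g UMIs, 377 without mitochondrial UMIs, 315 with size factors, 501 with free RNA subtracted, 508 at 20 CPM, 1493 with no minimum and 41 at 2-fold. A lower minimum or a larger fold changes these counts by its construction, and the cause of the other changes was not tested.

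Ratios that changed sign were, with at least 6 Slc8a1 and Calb1 UMIs, Stc1 (0.025) and H2-D1 (-0.25) with genotype, and Ramp2 (0.39), Sox18 (0.16), H2-D1 (0.12) and H2-K1 (0.0063) with diet. With at least 3 such UMIs it was Tkfc (-0.32) with diet. With Slc12a3 and Slc12a1 at 0 they were Avpr2 (0.57), Hoxd10 (1.48), Ptger1 (0.26) and Pfkp (1.13) with genotype and Slc2a4 (0.22) with diet. With under 3 UMIs of other types' markers they were Gja4 (-1.83), Ltbp4 (-0.83), Ifitm3 (-0.83) and H2-D1 (-0.068) with genotype, and Ramp2 (1.27), Vim (0.59) and H2-D1 (0.43) with diet. With at least 10 S100g UMIs they were Klk1 (0.12), Ramp2 (-0.42), Cdh1 (0.031), Tkfc (0.80) and H2-D1 (-0.55) with genotype and H2-D1 (0.23) with diet. Without the endothelial-marker barcodes they were Ramp2, Gja4, Ltbp4 and Ifitm3 (each -0.89) and H2-D1 (-0.29) with genotype, and Ramp2 and Mgp (each 0.14), Vim (0.72), H2-D1 (0.25) and H2-K1 (0.083) with diet. With free RNA subtracted they were Cyp24a1 (-1.79) and Lpl (0.054) with genotype, and Pvalb (1.04) and Igfbp5 (-0.067) with diet. The 54 db/m barcodes limit every ratio against that library.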
